A study of Mus musculus with 4 samples.

Results

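A set of 37 genes of the p53 response and of apoptosis were followed through the testes of control mice, of mice given alginate oligosaccharides (AOS), of mice given busulfan and of mice given both. The genes were taken from a list of symbols, and all 37 were found among the 18419 genes of the expression table. By role they were 4 genes of the p53 family and its regulators, 11 cell cycle and stress targets, 4 genes of the death receptor arm, 7 pro-apoptotic and 3 anti-apoptotic members of the Bcl2 family, and 8 genes for cytochrome c, the apoptosome and the caspases.

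p53, encoded by Trp53, is a transcription factor that is held at low levels by Mdm2 and is stabilized when DNA is damaged. It then switches on genes that stop the cell cycle, dampen stress or start cell death. Mitochondrial apoptosis is set by the balance of the Bcl2 family: Bax and Bak1 open the outer mitochondrial membrane, Bcl2 and its relatives hold them back, and cytochrome c released through the opening assembles Apaf1 and Casp9 into the apoptosome. The testis is known for frequent germ cell death, for p53-dependent death of damaged germ cells, and for a second cytochrome c, Cyct, that is made in germ cells.

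Each group was 1 library of testis cells, made with the 10x 3' kit from ICR mice that were 8 weeks old at collection, with the testes of 6 mice pooled. Per the methods the seminiferous tubules were cut up, washed and digested, and the authors state that cells of the tubules alone were taken. Shares of cell classes are therefore not those of the whole testis. A0 was the vehicle control (water), A10 received AOS at 10 mg/kg body weight by gavage, B0 received busulfan, and BA10 received busulfan and then the same AOS dose. Busulfan, an alkylating drug that cross-links DNA, was injected once, at 40 mg/kg at 3 weeks of age. AOS began on the following day. Its stated duration is 5 weeks in one account of the design and 2 weeks in another. As every group was a single pool, no spread between animals could be measured and no p-value is given. The interval in parentheses beside a value is a 95% interval of counting error only.

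The libraries held 8941 cells (A0), 9682 (A10), 4659 (B0) and 3778 (BA10), with a median of 12685, 10948, 4214 and 17989 UMIs per cell. A UMI stands for 1 captured transcript end. The shallowest cells kept had 7687 (A0), 6716 (A10), 2985 (B0) and 9013 (BA10) UMIs, so the libraries were cut at different depths, and only 448 B0 cells reached the BA10 limit against 7901 in A0 and 6691 in A10. Among the barcodes, 374 occurred in 2 or more libraries. Clustering with fixed markers gave 2762, 2912, 227 and 3182 spermatocyte-like cells (SPCs) in A0, A10, B0 and BA10, and 5822, 6386, 8 and 194 spermatid-like cells (STs). Spermatogonia-like cells (SPGs, 236), Sertoli-like cells (220), cells with macrophage markers (317) and cells with endothelial markers (67) were numerous enough for a level in B0 alone. Leydig-like cells numbered 3027 in B0, 118 in BA10, 5 in A0 and 8 in A10. A library's pooled level is therefore a level in a different mix of cells, and fewer cells of a type and less RNA per cell cannot be told apart in it.

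Levels are given as counts per 1000000 UMIs (CPM). Because 1 end is counted per transcript, a level does not scale with gene length. A library with no UMI of a gene allows a level of up to 0.0199 CPM (A0), 0.0209 (A10), 0.118 (B0) and 0.0329 (BA10). A gene was compared between 2 libraries where it reached 5 CPM in either, and was called higher or lower where the log2 ratio, with 1 CPM added to both, was at least 1 in size. At 10 CPM or more stood 7 of the 37 genes in A0 and 7 in A10, against 25 in B0 and 9 in BA10. Of all 18419 genes, 6643 stood at that level in A0 and 9216 in B0, so the count was larger in B0 for all genes as well.

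No member passed this limit with AOS alone. Of the 37, 10 could be compared between A10 and A0, all of them above 5 CPM in both, and 0 were called in either direction, where 0.11% of all 8213 genes compared were called. Their median log2 ratio was 0.06, against -0.03 over all genes. Mdm2, the ubiquitin ligase that removes p53, was at 153 CPM in A0 and 139 in A10, a ratio of 0.912 times (0.895 to 0.9295). Cyct was at 164 and 176 CPM, a ratio of 1.07 times (1.06 to 1.09). Within SPCs 0 of 10 members were called (0.1% of all genes) and within STs 0 of 9 (0.119% of all genes).

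With busulfan alone, most members that could be compared were higher than in the control. Pooled over all cells, 31 members could be compared between B0 and A0, 24 were called higher, where 45.2% of all 11941 genes were, and 0 lower, where 20.8% were. The median log2 ratio was 2.50 for the members compared and 0.67 for all genes. Of the 31, 21 passed 5 CPM through B0 alone, so they could not have been called lower. Among the 10 that passed in both libraries, 3 were higher (Trp53, Cdkn1a and Cycs) and 0 lower, against 23.7% and 25.8% of all 7422 genes that passed in both. Centred on the median of all genes, the split was 23 higher and 3 lower, and with 10 CPM added in place of 1, 15 were higher and 0 lower. The share of all genes called was not counted under either setting, here or in the comparisons that follow, so those counts have no background. The cell mix differed along with these levels, Leydig-like cells being 65.0% of B0 cells and 0.0559% of A0 cells, and its part in the pooled ratios was not tested here. Levels within a class follow further on.

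Among the p53 family and its regulators, 1 of 4 was higher in B0. Trp53 was at 6.71 CPM (A0), 7.06 (A10), 38.8 (B0) and 16 (BA10). A0 and A10 lay close together, BA10 stood above them and B0 highest, at 5.78 times (5.29 to 6.32) the A0 level. Mdm2 was at 153 CPM (A0), 139 (A10), 78.3 (B0) and 133 (BA10), and so lowest in B0, at 0.513 times (0.4898 to 0.537) the A0 level, which did not reach the limit. Mdm4, a relative of Mdm2 that binds and restrains p53, was at 62.8 CPM (A0), 65.2 (A10), 52.5 (B0) and 67.7 (BA10), a narrow range in which B0 was again the lowest. Trp63, the p63 relative of p53, stayed at or below 1.095 CPM in every library and class.

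All 11 cell cycle and stress targets were called higher in B0 than in A0, where 45.2% of all genes were. Cdkn1a alone of them reached 5 CPM in A0, so the other 10 entered the comparison through B0 and could only have been called higher. The counts by role that follow carry the same limit for members that reached 5 CPM in B0 alone, and the same share of all genes is their background. Cdkn1a, the p21 inhibitor of cyclin-dependent kinases, was at 6.13 CPM (A0), 5.94 (A10), 139.6 (B0) and 6.57 (BA10). The other 3 libraries lay together and B0 alone stood apart, at 22.8 times (21.2 to 24.5) the A0 level. Ccng1, which encodes cyclin G1, was at 0.782 CPM (A0), 0.842 (A10), 60.9 (B0) and 3.06 (BA10). Btg2, an antiproliferative factor, was at 2.56 CPM (A0), 2.02 (A10), 67.7 (B0) and 1.54 (BA10), with BA10 the lowest of the 4. The 3 Gadd45 genes encode small proteins that act in growth arrest and stress kinase signalling. Gadd45a was at 0.219 CPM (A0), 0.2296 (A10), 33.9 (B0) and 1.81 (BA10). Gadd45b was at 1.25 CPM (A0), 1.11 (A10), 11.8 (B0) and 2.67 (BA10). Gadd45g was at 1.88 CPM (A0), 1.65 (A10), 39.96 (B0) and 2.11 (BA10). In all 3 the B0 level was the highest, and Gadd45a, the one absent or nearly so from control cells, differed most.

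The sestrins limit oxidative stress and the growth kinase mTORC1. Sesn1 was at 2.93 CPM (A0), 2.53 (A10), 30.4 (B0) and 3.27 (BA10), and Sesn2 at 0.922 CPM (A0), 0.946 (A10), 6.75 (B0) and 0.5695 (BA10). Both were several times higher in B0 than elsewhere. Phlda3, an inhibitor of Akt, was at 0.153 CPM (A0), 0.0974 (A10), 30.8 (B0) and 2.52 (BA10). Trp53inp1, a stress protein that promotes p53 activity, was at 0.709 CPM (A0), 0.751 (A10), 47.5 (B0) and 2.26 (BA10). Zmat3, a zinc finger RNA-binding protein, was at 4.47 CPM (A0), 4.12 (A10), 18.9 (B0) and 8.14 (BA10). It differed least of the 11, and its BA10 level lay between the control and B0.

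For 7 of the 32 members whose promoter was found in the RefSeq set (GRCm38.p6), the 250 bases before the start and the first 50 after it held the p53 half-site, a stretch of 10 letters that p53 binds in pairs, searched in its degenerate form on both strands. These 32 genes had 42 promoters in the set, of which 7 held the match, against 8.36% of all promoters, and counted by gene it was held by 9.55% of all genes. The windows are shown to set the matched letters of these 7 genes side by side. Of the 7, 6 were called higher in B0 (45.2% of all genes) and Mdm2 was not, but Ccng1, Gadd45a, Sesn1 and Bax passed the filter through B0 alone and could only have been called higher. Capitals mark the match.
Cdkn1a (chr17:29090896-29090925, plus strand): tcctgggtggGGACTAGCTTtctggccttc
Cdkn1a, further match (chr17:29090918-29090947, plus strand): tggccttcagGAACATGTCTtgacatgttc
Ccng1 (chr11:40755452-40755481, minus strand): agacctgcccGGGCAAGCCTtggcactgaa
Gadd45a (chr6:67037428-67037457, minus strand): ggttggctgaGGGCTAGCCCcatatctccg
Sesn1 (chr10:41887256-41887285, plus strand): cttggccttcAAGCTTGTTTttgctggcct
Bax (chr7:45467080-45467109, minus strand): agcatatcccAGGCAAGCTTtgaacttgcg
Mdm2 (chr10:117710925-117710954, minus strand): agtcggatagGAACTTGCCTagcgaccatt
Trp53 (chr11:69580274-69580303, plus strand): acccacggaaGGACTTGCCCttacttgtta
A match is a description of these letters and not a bound site. Promoters were not matched for Trp63, Zmat3, Trp53inp1, Pmaip1 and Bik.

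In the death receptor arm, 3 of 4 genes were higher in B0. Fas, the receptor that receives the Fas ligand, was at 0.259 CPM (A0), 0.195 (A10), 6.52 (B0) and 0.219 (BA10). Fadd, the adaptor that carries its signal, was at 3.77 CPM (A0), 3.78 (A10), 9.52 (B0) and 9.74 (BA10), and was the only one of the arm whose BA10 level lay near that of B0. Casp8, the caspase that Fadd activates, was at 0.192 CPM (A0), 0.188 (A10), 10.4 (B0) and 0.8105 (BA10). Eda2r, a receptor of the same superfamily and a p53 target, was at 0.0199 CPM (A0), 0 (A10), 4.38 (B0) and 0.0986 (BA10), under 5 CPM in all libraries, so it was not compared.

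Of the 7 pro-apoptotic Bcl2 genes, 5 could be compared and 4 were higher in B0. Bax, which forms the pore in the outer mitochondrial membrane, was at 3.97 CPM (A0), 3.39 (A10), 145 (B0) and 14.4 (BA10). Its B0 level was 36.7 times (33.6 to 40.1) that of A0, and BA10 lay between. The annotation has a second coding gene, Gm45808, over Bax on the same strand, so its counts carry that uncertainty. Bak1, the other pore former, was at 2.61 CPM (A0), 2.48 (A10), 11.02 (B0) and 5.56 (BA10). Bbc3 encodes Puma, a BH3-only protein and direct p53 target, and was at 0.424 CPM (A0), 0.633 (A10), 6.32 (B0) and 0.942 (BA10). Bik, a BH3-only protein of the endoplasmic reticulum, was at 1.56 CPM (A0), 1.74 (A10), 14.7 (B0) and 2.03 (BA10). Bcl2l11, which encodes Bim, was compared but not called, at 6.27 CPM (A0), 6.42 (A10), 9.201 (B0) and 1.38 (BA10). It differed from the rest of the group in being lowest in BA10. Bid, the BH3-only protein that Casp8 cuts, was at 0.0796 CPM (A0), 0.132 (A10), 1.501 (B0) and 0.241 (BA10). Pmaip1, which encodes Noxa, stayed below 10 CPM in every library and class, between 0.167 and 2.25 CPM by library.

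Of the 3 anti-apoptotic genes 2 could be compared, and 0 were called. Bcl2l1, which encodes Bcl-x, was at 43.97 CPM (A0), 46.6 (A10), 52.9 (B0) and 69.6 (BA10). Mcl1, a short-lived guardian of the membrane, was at 58.5 CPM (A0), 61.9 (A10), 73.7 (B0) and 77.8 (BA10). Bcl2 itself was close to undetected in all cells pooled, at 0.0796 CPM (A0), 0.0417 (A10), 1.26 (B0) and 0.1095 (BA10). Over all cells, the log2 ratio of B0 to A0 was 4.88 for Bax, 0.26 for Bcl2l1 and 0.33 for Mcl1. Bcl2l1 was called higher in B0 among cells with at least 9013 UMIs and within SPCs, as given further on. Bcl2 relatives outside the list of members went both ways over all cells. Bcl2l2 was at 0.206 CPM in A0 and 26.9 in B0, and Bcl2a1b at 1.39 and 5.37. Both passed 5 CPM through B0 alone, while Bcl2l14 was lower, at 364 and 24.6 CPM.

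Downstream of the membrane, 5 of 8 genes were higher in B0. Cycs, the somatic cytochrome c, was the most abundant member in B0, at 29.95 CPM (A0), 31.2 (A10), 678 (B0) and 83.7 (BA10). Cyct, its testis form, was lower in B0 without reaching the limit, at 164 CPM (A0), 176 (A10), 83.2 (B0) and 253 (BA10). Diablo, which frees caspases by binding their inhibitors, was at 453 CPM (A0), 469.6 (A10), 301 (B0) and 1014 (BA10), with B0 the lowest and BA10 the highest. A second coding gene, Gm49027, lies over Diablo on the same strand. Xiap, the inhibitor that Diablo binds, was at 0.139 CPM (A0), 0.111 (A10), 46.95 (B0) and 1.12 (BA10). It was nearly undetected outside B0, where it was 337 times (219.6 to 547) the A0 level. Apaf1 was at 0.0796 CPM (A0), 0.125 (A10), 3.24 (B0) and 0.285 (BA10). The initiators Casp9 and Casp2 were at 1.62 CPM (A0), 1.38 (A10), 13.1 (B0) and 3.395 (BA10) for Casp9, and at 0.378 CPM (A0), 0.404 (A10), 6.59 (B0) and 1.05 (BA10) for Casp2. Casp6, an executioner, was at 2.08 CPM (A0), 2.09 (A10), 22.5 (B0) and 3.12 (BA10). Pooled over all cells, these 3 caspases were highest in B0, at no more than 22.5 CPM there.

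**Figure D1:**
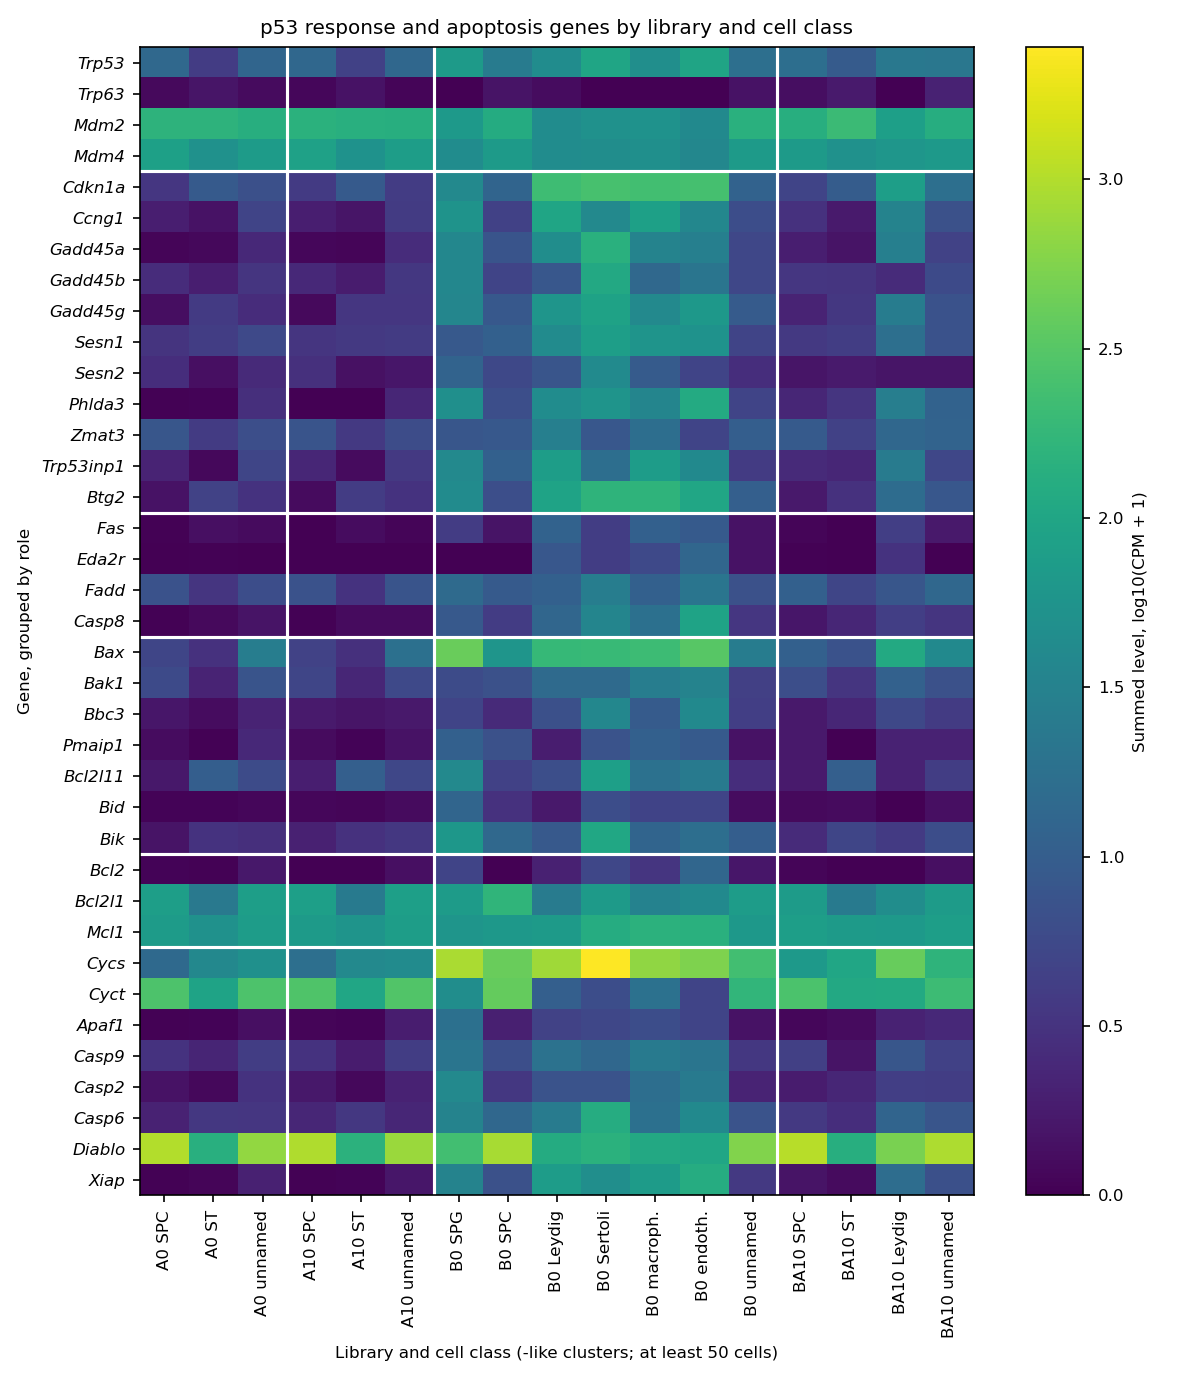
Level of each member (rows, grouped by role) in each library and cell class of at least 50 cells (columns), as log10 of summed CPM + 1, with brighter colours for higher levels. Most stress targets are bright in Leydig-like cells of B0 and, less so, of BA10, and dim in SPCs of A0, with Cdkn1a at 215, 77.8 and 2.44 CPM, while Mdm2, Mdm4, Bcl2l1, Mcl1 and Diablo are bright in all columns.

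Within B0, 36 of the 37 members reached 5 CPM in 1 or more of the 6 classes, of which 4 were somatic. Of these 36, 26 were highest in a somatic class, where 54.6% of all 13430 genes that reached 5 CPM were, and the intervals of the highest and the next class were apart for 15, where they were for 37.2% of all genes. Sertoli-like cells were highest for 13, endothelial-like for 7, SPCs for 5, SPGs for 5, Leydig-like for 4 and macrophage-like for 2. The share of all genes given here is for the somatic classes together, so these counts by class have no background. The 5 members highest in SPCs were Mdm2, Mdm4, Bcl2l1, Cyct and Diablo. As the clusters were made from the same cells' expression, these orders are a description.

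Cdkn1a was high in the somatic classes and low in germ cells. It was at 215 CPM (207 to 223) in Leydig-like, 249 CPM (218 to 283) in Sertoli-like and 244 CPM (186 to 313) in endothelial-like cells. In SPGs it was at 37.9 CPM (26.8 to 51.99) and in SPCs at 11.5 CPM (7.29 to 17.3). The 3 somatic intervals overlapped, and both germ cell intervals lay below them and apart from each other. Bax had another order, with SPGs at 412 CPM (373 to 453) and endothelial-like cells at 324 CPM (257 to 402) ahead of Sertoli-like (191 CPM) and Leydig-like cells (187 CPM). SPCs were lowest for Bax, at 58.5 CPM (48.4 to 70.1).

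Sertoli-like cells led for Gadd45a (142 CPM, next Leydig-like 45.6), Gadd45b (110.3, next SPGs 35.9) and Sesn2 (41.4, next SPGs 10.96). They also led for Bcl2l11 (80.6 CPM, next SPGs 37.9), Casp6 (124, next endothelial-like 39.97) and Cycs (2460.0, next SPGs 909). In each of these 6 the Sertoli-like interval lay apart from that of the next class. Leydig-like cells led for Ccng1 (98.7 CPM), Trp53inp1 (76.7), Zmat3 (28.03) and Fas (10.7). Only for Zmat3 was their interval apart from the next.

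Endothelial-like cells, 67 in number, were highest for Casp8 at 91.9 CPM (58.3 to 138), for Phlda3 at 116 CPM (77.6 to 166) and for Xiap at 124 CPM (84.2 to 176). No B0 cell was named endothelial-like when clustered at resolution 0.5, at resolution 2 or with 1000 variable genes, so this class rests on the main clustering alone. The receptor Eda2r and the guardian Bcl2 had 3 UMIs each in this class, or 11.99 CPM (2.47 to 35.04), intervals that overlapped those of the next class. Bid (11.96 CPM), Apaf1 (16.9) and Casp2 (37.9) were highest in SPGs, the class that also led for Bax and Pmaip1 (9.97). No SPG interval was apart from that of the next class.

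The macrophage-like class carried Leydig transcripts. It joined cluster 24 (269 cells), in which Insl3, a Leydig hormone, stood at 10035 CPM, near the 11845 of Leydig-like cells, and cluster 32 (48 cells), in which it stood at 264. Cluster 32 came from a split of another cluster, made after the clusters were seen. The 7 macrophage markers summed to 3212 CPM in cluster 24 and 14649 in cluster 32. Mcl1, highest in this class, was at 151 CPM (130 to 176) in cluster 24 and 149 CPM (97.3 to 218) in cluster 32, against 69.7 in Leydig-like cells. Casp9, the other, was at 25.5 CPM (17.1 to 36.7) in cluster 24 and, on 2 UMIs, 11.5 CPM (1.39 to 41.4) in cluster 32, so the clusters could not be told apart for it. In the other B0 classes Insl3 was at 1.38% to 1.93% of its Leydig-like level. A Leydig share of that size would bring 3.597 CPM of Bax to SPGs, which had 412, and 2.58 CPM to SPCs, which had 58.5. These values count RNA from Leydig-like cells alone, and RNA from other classes was not tested.

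Restricted to cells with at least 9013 UMIs, a limit that all 4 libraries meet, the contrast of B0 with A0 was smaller. The 448 B0 cells left were 362 unnamed cells (in B0 nearly all of cluster 15, led by Dcn and Gsn), 57 SPCs, 20 Leydig-like cells and 9 others. Over all 557 unnamed B0 cells, with those below the limit, the SPC markers summed to 1033 CPM and the ST markers to 595. In the same cells the Leydig markers summed to 498 CPM, the macrophage markers to 192 and the Sertoli markers to 153. Of 19 members compared, 11 were higher (20.0% of all genes) and 1, Bcl2l11, was lower (10.9% of all genes), with a median log2 ratio of 1.11 against 0.32 over all genes. Of the 19, 9 passed the filter through B0 alone, and Bcl2l11 passed through A0 alone. Among the 9 that passed in both libraries, 4 were higher (9.58% of all such genes) and 0 lower (9.13%). Cdkn1a was then at 15.5 CPM in B0 and 6.09 in A0, and Cycs at 219 and 28.97. Bax was at 28.1 and 3.89 CPM. Higher as well were Trp53, Ccng1, Gadd45g, Trp53inp1, Btg2, Bik, Bcl2l1 and Casp6. Between A10 and A0 at this limit, 0 of 10 members were called (0.085% of all genes).

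**Figure D2:**
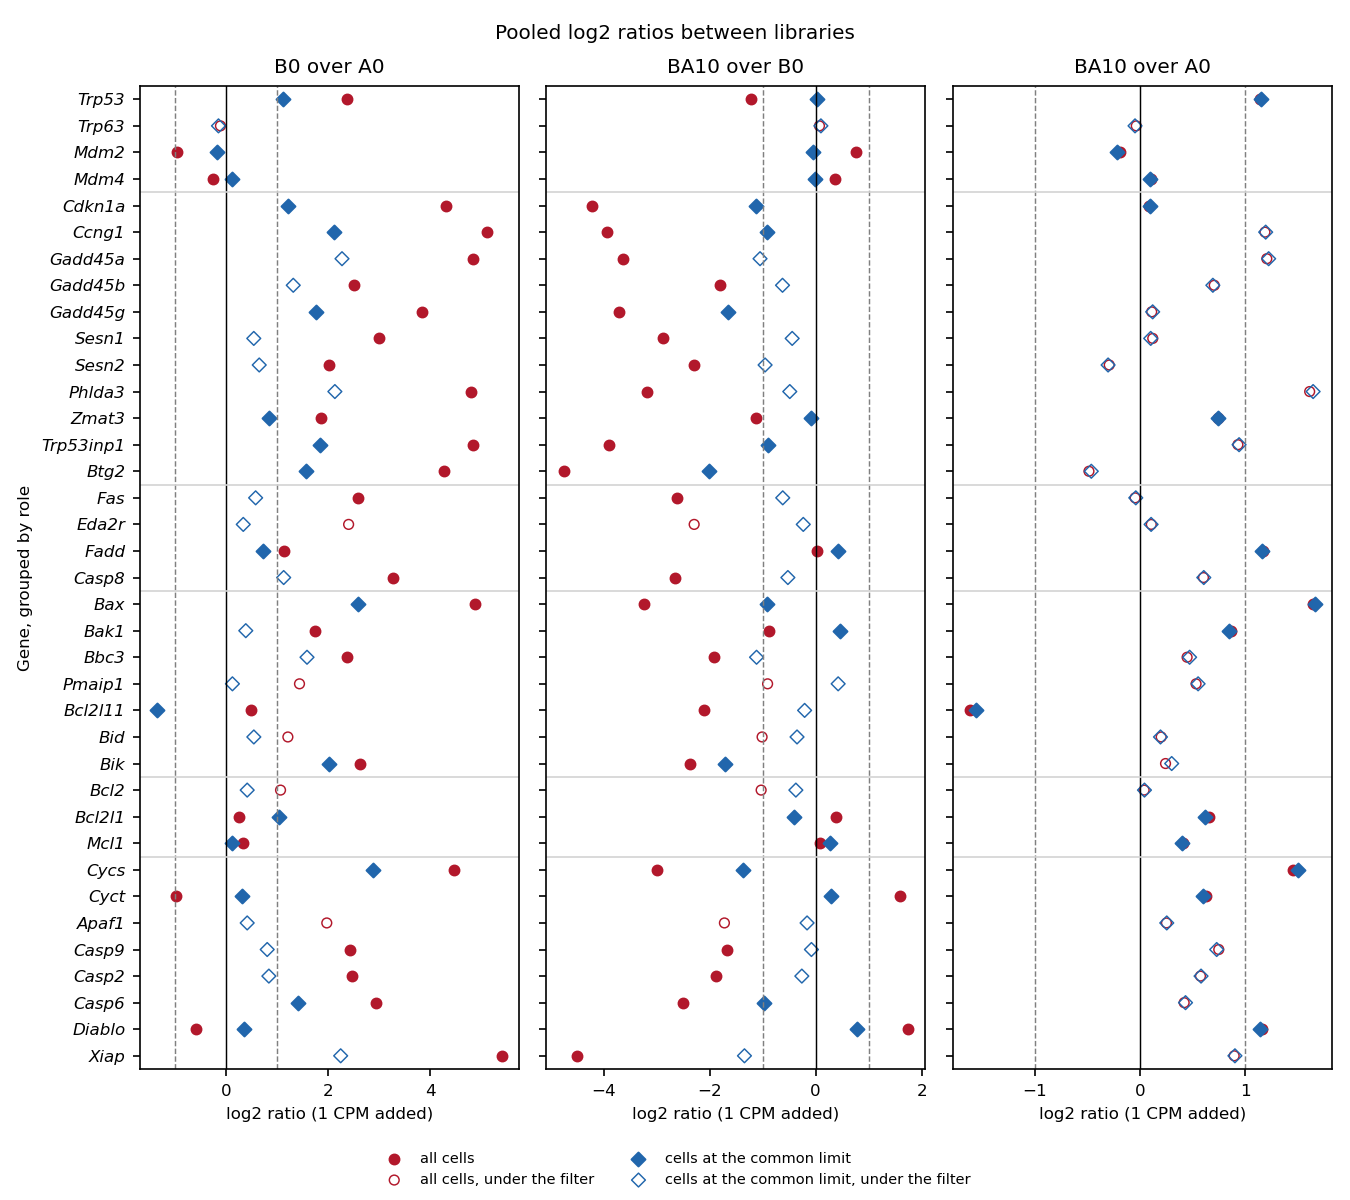
Log2 ratio of each member between libraries, with 1 CPM added, over all cells (circles) and over cells at the common UMI limit (diamonds), with open symbols for members under 5 CPM in both and dashed lines at a ratio of 1 in size. For B0 over A0 the stress targets lie farther from 0 over all cells than at the common limit, Cdkn1a at 4.30 against 1.21, while for BA10 over A0 the symbols nearly coincide. The limit keeps all BA10 cells and most A0 cells.

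Busulfan with AOS was next set against busulfan alone. Of 31 members compared over all cells, 23 were lower in BA10 than in B0 (42.2% of all genes) and 2 were higher (16.7% of all genes), with a median log2 ratio of -2.30 against -0.53 over all genes. Of the 31, 18 passed the filter through B0 alone. Among the 13 that passed in both libraries, 5 were lower (22.4% of all such genes) and 2 higher (21.9%). With 10 CPM added, 13 of the 31 were lower and 2 higher. This comparison shares the B0 library with the one before. All 11 cell cycle and stress targets were lower, Cdkn1a by a log2 ratio of -4.22 and Gadd45g by -3.72, though all but Cdkn1a and Zmat3 passed the filter through B0 alone. The 2 higher genes were Cyct, at 3.04 times (2.91 to 3.18) the B0 level, and Diablo, at 3.37 times (3.29 to 3.45).

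At the common UMI limit the same contrast held 19 members, of which 0 were higher (1.16% of all genes) and 5 lower (16.2% of all genes). Among the 12 that passed the filter in both libraries, 2 were lower (10.7% of all such genes) and 0 higher (1.01%). The 5 were Cdkn1a, Gadd45g, Btg2, Bik and Cycs. Cycs was at 219 CPM in B0 and 83.7 in BA10, and Btg2 at 9.33 and 1.54. The log2 ratio of Trp53 changed sign, with 15.6 CPM in B0 and 16 in BA10, and was 0.035 in place of -1.23. Over these deeper cells, then, fewer members were past the limit, and the cells compared were mostly of an unnamed B0 cluster and of BA10 SPCs. The unnamed B0 cells held the SPC, ST, Leydig, macrophage and Sertoli markers given above.

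Between BA10 and A0, 14 members could be compared. In BA10, 5 were higher, where 16.1% of all genes were, and 1 was lower, where 19.5% were, with a median log2 ratio of 0.70 against 0.35 over all genes. The higher members were Trp53 at 2.38 times (2.199 to 2.59) the A0 level, Fadd at 2.58 times (2.32 to 2.87), Bax at 3.64 times (3.31 to 4.02), Cycs at 2.79 times (2.69 to 2.9) and Diablo at 2.24 times (2.22 to 2.26). Bcl2l11 was lower, at 0.22 times (0.181 to 0.265). Cdkn1a, by contrast, was close to the control, at 1.07 times (0.966 to 1.19). Of the 14, 4 passed the filter through BA10 alone and Bcl2l11 through A0 alone, and among the 9 that passed in both libraries 3 were higher (12.6% of all such genes) and 0 lower (15.2%). Centred on the median of all genes, 2 members were higher and 1 lower, and with 10 CPM added 2 were higher and 0 lower. At the common UMI limit 5 of 14 were higher (15.4% of all genes) and 1 lower (19.6% of all genes). That limit kept all BA10 cells and 7901 of the 8941 A0 cells, so it compares nearly the same cells again.

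Fewer members differed from A0 within SPCs, though the SPCs of the libraries lay in different clusters. SPCs of A0 and A10 lay in clusters 1, 7, 12, 14, 21 and 25, those of BA10 in clusters 5 (1297 cells), 10 (1114) and 16 (765), and those of B0 in clusters 27 (184) and 10 (43). Cluster 27 was led by Meiob. Between BA10 and A0, 2 of 12 members were higher (3.07% of all genes) and 0 lower (5.51% of all genes), and the medians were 0.14 and -0.02. The 2 were Cycs and Bax, of which Bax passed the filter through BA10 alone. With 10 CPM added, Cycs alone was called.

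Cycs was at 13.5 CPM (12.5 to 14.6) in A0 SPCs and 16.2 CPM (15.1 to 17.4) in those of A10, against 407 CPM (379.6 to 436) with busulfan alone and 67.7 CPM (65.9 to 69.5) in BA10. The BA10 level was 5.002 times (4.62 to 5.43) that of A0. The 3 BA10 clusters ranged from 58.7 to 90.5 CPM and the 6 A0 clusters from 8.199 to 45.6, with no overlap. Clusters are parts of 1 library each and not replicates, so these ranges do not measure a spread between animals. Insl3 stood at 1.15% of the BA10 Leydig-like level in these cells, a share that would bring 4.62 CPM of Cycs. RNA from other classes is not counted in it, and the Sertoli markers summed to 35.6 CPM in BA10 SPCs and 4.37 in A0. The part of such RNA in the Cycs level was not tested.

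Bax was at 4.17 CPM (3.62 to 4.77) in A0 SPCs, 3.64 CPM (3.13 to 4.21) in A10 and 9.97 CPM (9.29 to 10.7) in BA10, a ratio of 2.39 times (2.05 to 2.8) between BA10 and A0. Among the A0 clusters 1 stood apart. Cluster 21 had 44.1 CPM in A0 and 31.7 in A10, while the other 5 A0 clusters ranged from 1.01 to 3.699 and the 3 of BA10 from 7.37 to 12.7. At a Leydig share as above, 1.32 CPM of Bax would be brought to BA10 SPCs, with RNA from other classes again not counted. The log2 ratio of Bax was 1.09, and the call was lost with 10 CPM added (0.50), without the 5% of cells with the most UMIs (0.94), at resolution 2 (0.97) and with 1000 variable genes (0.79). At resolution 0.5 the ratio was 2.46.

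Against B0, 14 of 24 members were lower in BA10 SPCs (36.4% of all genes) and 0 higher (16.4% of all genes). Of these 24, 12 passed the filter through B0 alone, and among the 12 that passed in both libraries 3 were lower (26.3% of all such genes) and 0 higher (13.2%). Against A0, 15 of 24 were higher in B0 SPCs (36.0% of all genes) and 0 lower (19.8% of all genes). Here 14 passed through B0 alone and could not have been called lower, and among the 10 that passed in both 2 were higher (23.9% of all such genes) and 0 lower (16.4%). With 10 CPM added, 3 were lower in BA10 and 4 higher in B0. At the common UMI limit, which left 57 B0 SPCs, 8 of 20 were lower in BA10 than in B0 SPCs and 0 higher. The share of all genes called was not counted there, and their median log2 ratio was -0.21. The log2 ratio of Pmaip1 was then 0.78, with 0.714 CPM in BA10 and no UMI left in B0, so its sign shows no direction. The B0 SPCs numbered 227 and held markers of other classes beside their own. The Leydig markers summed to 402 CPM in B0 SPCs, 3.55 in A0 and 117 in BA10, and the SPG markers to 1039, 190.0 and 188. Bcl2l1 was at 167 CPM in B0 SPCs, 78.8 in A0 and 72.3 in BA10. Cdkn1a was at 11.5, 2.44 and 3.99 CPM in the same order, so even in B0 it stayed far below the somatic level. The part of the marker differences in these values was not tested.

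Within STs, 11 members could be compared between BA10 and A0. In BA10, 3 were higher (8.03% of all genes) and 0 lower (7.08% of all genes). Trp53 and Bax passed the filter through BA10 alone, and among the 9 members that passed in both libraries 1, Cycs, was higher (3.96% of all such genes) and 0 were lower (5.51%). With 10 CPM added 1 member was called. Trp53 was at 2.98 CPM (2.64 to 3.35) in A0 STs and 8.45 CPM (5.82 to 11.9) in BA10, Bax at 2.02 CPM (1.74 to 2.33) and 6.15 CPM (3.94 to 9.15), and Cycs at 37.02 CPM (35.8 to 38.3) and 101 CPM (90.98 to 111). The A0 STs ran through 12 clusters, and 172 of the 194 BA10 STs lay in cluster 28. Its spermatid markers summed to 3224 CPM, the fewest of any ST cluster, against 8110.4 to 202581 in the ST clusters of A0. Over all SPCs of A0 they summed to 5071 CPM. The STs of BA10 and A0 were thus not matched in stage, which holds for every ST ratio given here. Markers of other classes were higher in BA10 STs, the Leydig markers summing to 5.34 CPM in A0 and 152 in BA10, the Sertoli markers to 14.01 and 49.2, and the macrophage markers to 17.02 and 46.6. Their part in these values was not tested. Bcl2l11, lower in BA10 over all cells, was not called in STs, at 9.39 CPM in A0 and 9.48 in BA10, a ratio of 1.01 times (0.706 to 1.403).

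Leydig-like cells allowed 1 comparison, between BA10 (118 cells) and B0 (3027 cells). Of 32 members, 18 were lower in BA10 (23.5% of all genes) and 2 higher (26.5% of all genes), with a median log2 ratio of -1.07 against -0.24 over all genes, and centred on that median 13 were lower and 4 higher. With 10 CPM added, 5 were lower and 2 higher. Of the 32, 9 passed the filter through B0 alone, and among the 23 that passed in both libraries 11 were lower (20.1% of all such genes) and 2 higher (19.1%). Cdkn1a was at 215 CPM (207 to 223) in B0 and 77.8 CPM (65.6 to 91.7) in BA10, Btg2 at 93.1 CPM (87.97 to 98.5) and 14.7 CPM (9.68 to 21.4), and Xiap at 73.4 CPM (68.9 to 78.2) and 15.2 CPM (10.1 to 22.02). Bax was not called, at 187 and 115 CPM. The 2 higher members were Cyct, at 9.65 and 112 CPM, and Diablo, at 121 and 509.9. Germ cell markers were also higher. The SPC markers summed to 83.1 CPM in B0 and 654 in BA10, the ST markers to 32.6 and 1296, and the Leydig markers to 24509.7 and 11766. Of the BA10 cells, 45 lay in cluster 0, which held 2994 of the B0 cells, and 73 in cluster 29, which held 33. Their part in the result was not tested.

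In the control testis several members differed in level between SPCs and STs. Trp53 was at 12.9 CPM in SPCs and 2.98 in STs of A0, Bcl2l1 at 78.8 and 22.5, and Diablo at 1006 and 137, all lower in STs. Bcl2l11 ran the opposite way, at 0.641 and 9.39 CPM, a ratio of 14.6 times (10.3 to 21.5), and so did Cdkn1a, at 2.44 and 8.12. In A10 the same ratio for Bcl2l11 was 10.4 times (7.75 to 14.4), and in BA10 12.8 times (8.27 to 19.7). Mdm2 had like means, 153 CPM in SPCs and 154 in STs.

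The clusters within a class differed. Mdm2 ran from 8.298 to 254 CPM across the ST clusters of A0, highest in clusters 20 and 13, and was at 34.6, 16.7, 17.2 and 8.298 CPM in clusters 11, 4, 3 and 23, whose spermatid markers summed highest. Those 4 clusters were the highest for Bcl2l11, at 15.7 to 23.9 CPM. Diablo ran from 785 to 1171 CPM in the SPC clusters and from 46.7 to 584 CPM in the ST clusters, where cluster 19 stood highest. Cluster 21, the SPC cluster with the most SPC marker UMIs, was highest of all for Cyct (602 CPM), Bcl2l1 (153), Trp53 (19.4) and Bax (44.1). In A10 it had 602 CPM of Cyct and 155 of Bcl2l1. Spermatid markers were present in every A0 SPC cluster, at 3134 to 6570.3 CPM summed, against 93.9 to 793 in those of BA10.

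**Figure D3:**
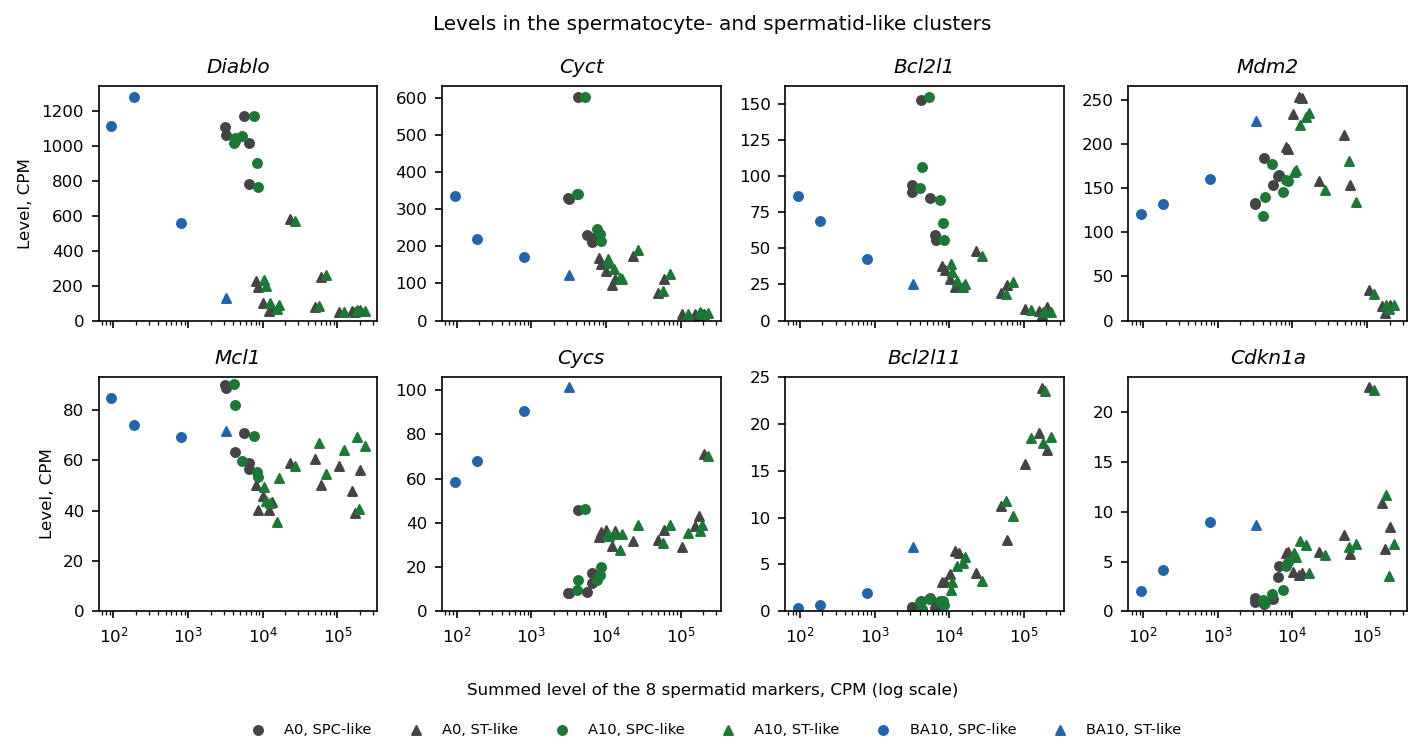
Level in CPM of 8 members (1 panel each, linear axis from 0) in the SPC (circles) and ST clusters (triangles) of A0, A10 and BA10, against the summed CPM of the 8 spermatid markers (log axis). Each point is 1 cluster of at least 50 cells in 1 library. Mdm2 is low in the clusters with the most spermatid markers while Bcl2l11 is highest there, reaching 23.9 CPM in A0.

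The 2 cytochrome c genes differed in their levels across cell classes. The first 250 bases before each start (RefSeq, GRCm38.p6) are shown to set the 2 promoters side by side, since these genes encode forms of the same electron carrier and stood in different ratios to each other from class to class. Capitals mark TGACGTCA, the element bound by CREB and CREM factors, and CCAAT, both searched on each strand. The letters TGACGTCA read the same on both.
Cycs (chr6:50566570-50566819, minus strand): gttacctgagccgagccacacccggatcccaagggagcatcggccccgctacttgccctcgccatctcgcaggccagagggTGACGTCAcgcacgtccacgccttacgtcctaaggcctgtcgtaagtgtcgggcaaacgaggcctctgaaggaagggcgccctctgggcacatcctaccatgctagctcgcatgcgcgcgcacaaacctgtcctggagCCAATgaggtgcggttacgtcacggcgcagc
Cyct (chr2:76360454-76360703, minus strand): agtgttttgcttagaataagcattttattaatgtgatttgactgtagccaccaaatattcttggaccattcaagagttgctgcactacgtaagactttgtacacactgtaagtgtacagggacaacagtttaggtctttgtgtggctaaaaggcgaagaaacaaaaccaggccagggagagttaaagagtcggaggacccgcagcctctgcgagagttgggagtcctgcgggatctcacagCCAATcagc
TGACGTCA stood in the Cycs window 169 bases before the start and was not found in that of Cyct, and of all promoters 1.79% held it in 300 bases. Btg2 was the only other matched member with it. CCAAT stood in both, 31 bases before the start of Cycs and 9 before that of Cyct, and it was held by 37.4% of all promoters and 19 of the 42 of the members, or, counted by gene, by 41.1% of all genes and 17 of the 32 matched members.

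Of all UMIs of the pair, Cyct took 84.5% (84.1 to 84.95) in A0 and 84.9% (84.5 to 85.4) in A10, but 10.9% (10.5 to 11.4) in B0, and 75.1% (74.6 to 75.6) in BA10. Over all cells, B0 was the one library in which the somatic form took the larger share. The B0 value depended on the cells kept, as Cyct took 48.5% among those at the common UMI limit and 6.29% without the 5% of cells with the most UMIs. In A0 the share was 95.4% (95.01 to 95.7) in SPCs and 71.6% (70.7 to 72.4) in STs, so the somatic form took a larger share in STs. In B0 it was 0.215% (0.0699 to 0.501) in Sertoli-like cells, 0.735% (0.0186 to 4.03) in endothelial-like, 1.18% (0.983 to 1.402) in Leydig-like and 2.54% (1.62 to 3.79) in macrophage-like cells. SPGs of B0, a germ cell class, had a share of only 4.702% (3.45 to 6.24), near the somatic classes, and SPCs of B0 48.8% (46.3 to 51.3). In BA10 the share was 79.8% (79.3 to 80.3) in SPCs and 52.2% (48.7 to 55.7) in STs, both below A0 with intervals apart, and 21.8% (19.2 to 24.5) in Leydig-like cells.

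Both forms were seen in single cells. With each cell thinned to 2500 UMIs, 1.85% of A0 SPCs, 8.96% of BA10 SPCs and 33.04% of B0 SPCs held a UMI of both, against 0.909% of Sertoli-like and 1.49% of Leydig-like cells of B0, which should lack Cyct. The share with both moves with the level of each gene, and whether it came from free RNA was not tested. In absolute level, BA10 SPCs had 267 CPM of Cyct and A0 SPCs 278, so the lower share in BA10 came with a higher Cycs and a like Cyct.

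**Figure D4:**
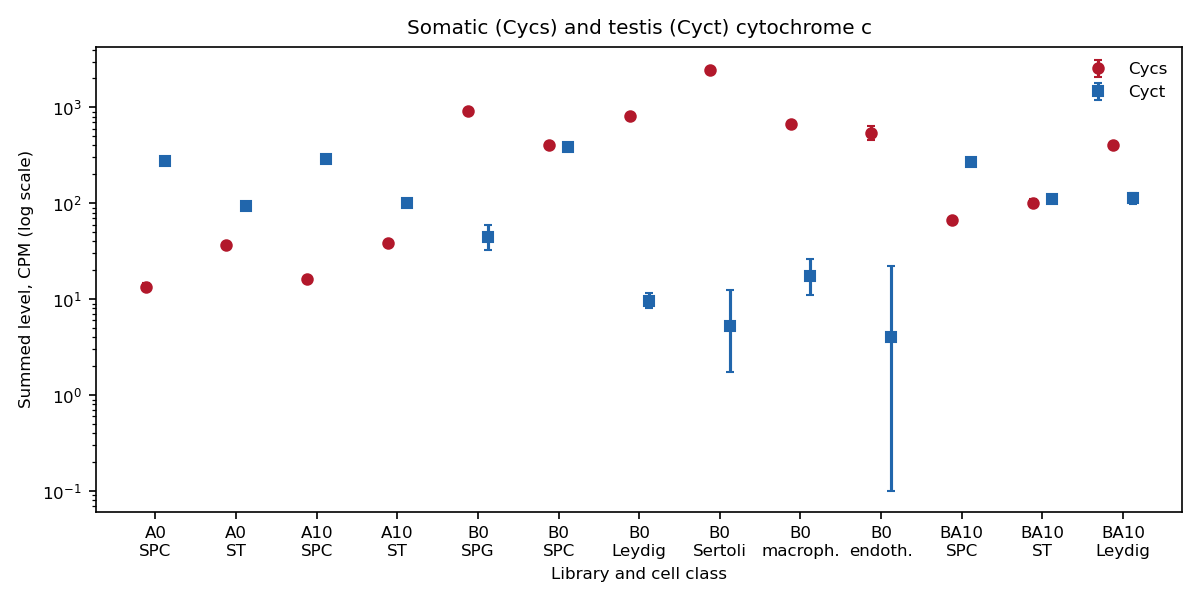
Level of Cycs (circles) and Cyct (squares) in each library and class of at least 50 cells, in CPM on a log axis, with 95% exact Poisson intervals. Cyct lies above Cycs in SPCs and STs of A0 and A10, and Cycs lies far above Cyct in the somatic classes of B0, with 2460.0 against 5.304 CPM in Sertoli-like cells.

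Counted by cell at the same thinned depth, the members with a UMI in at least 10% of cells numbered 5 (A0), 5 (A10), 13 (B0) and 7 (BA10), or 8, 7, 19 and 13 unthinned. The same count over all genes was not made. Diablo was found in 45.6% (A0), 45.99% (A10), 33.6% (B0) and 83.4% (BA10) of cells. Cycs was found in 7.87%, 8.48%, 79.8% and 20.8%, and Bax in 1.02%, 0.992%, 34.3% and 4.13%. The order of the libraries by share was that of their CPM for Cycs and Bax.

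Further genes of the same pathways, in lists that hold no member, were counted over all cells in the same way, and the shares of all genes given above are their background too. As for the members, a gene that reached 5 CPM in 1 library alone could be called in 1 direction only. Of 22 further p53 targets, 18 could be compared between B0 and A0, with 12 higher and 2 lower. Of the 12, Cd82 alone reached 5 CPM in both, at 5.32 CPM in A0 and 47.2 in B0. Dram1 was lower with both levels above 5 CPM, at 21.5 CPM in A0 and 8.65 in B0. Tnfrsf10b, the other lower one, passed through A0 alone. Fdxr, an electron donor in steroid synthesis that p53 also induces, was at 4.52 CPM (A0), 5.67 (A10), 250.4 (B0) and 13.9 (BA10). Of 31 further apoptosis genes, 23 could be compared, with 16 higher and 2 lower. Of the 16, Birc6, Bnip3 and Bnip3l alone reached 5 CPM in A0, while the 2 lower genes reached it in both libraries. Vdac1, a channel of the outer mitochondrial membrane that passed through B0 alone, was at 1.13 CPM (A0), 1.197 (A10), 116 (B0) and 6.02 (BA10). Bcl2l14, a Bcl2 relative, was one of the 2 lower, at 364 CPM (A0), 318 (A10), 24.6 (B0) and 39.8 (BA10).

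Of 14 DNA damage kinases and p53 modifiers, 12 could be compared between B0 and A0, with 6 higher and 1 lower. Of the 6, Hipk2 and Rchy1 alone reached 5 CPM in A0. Hipk2, a kinase that phosphorylates p53, was at 8.35 CPM (A0), 7.03 (A10), 105 (B0) and 4.6 (BA10). Ppm1d, a phosphatase that turns p53 signalling off, was the lower one, at 372 CPM (A0), 327 (A10), 103 (B0) and 221 (BA10). Between BA10 and B0 the 3 lists had 0 of 17 higher and 13 lower (p53 targets), 2 of 23 higher and 15 lower (apoptosis genes), and 2 of 11 higher and 4 lower (kinases and modifiers). Between BA10 and A0 they had 4 of 11 higher and 4 lower, 2 of 11 higher and 1 lower, and 0 of 9 higher and 3 lower, in the same order. Between A10 and A0 no gene of the 3 lists was called, of 8, 10 and 8 compared.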

How the data were processed

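Single testis cells of 4 libraries (A0, A10, B0 and BA10, each 6 ICR mice pooled) were measured with the 10x 3' V2 kit. Per the labels the authors used Cell Ranger 2.2.0 and mm10, and per the methods they kept cells with at least 200 genes and genes in at least 3 cells. In the deposited table each value is a natural log: a gene's UMIs were divided by the cell's total, scaled to 10000, and logged after adding 1. Dividing each cell's back-transformed values by the lowest gave whole UMIs for 100% of values (tolerance 0.001). No mitochondrial gene is listed, so RNA quality by that measure was not assessed.

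UMIs were summed by library or class and scaled to 1000000 (CPM), with exact Poisson intervals for levels, exact conditional binomial intervals for ratios and Clopper-Pearson intervals for shares. Cells were clustered with scanpy 1.11.5 and leidenalg 0.10.2 (2000 variable genes, 30 components, 15 neighbours, resolution 1) and named from fixed markers. The 1 cluster tied between SPG and endothelial markers was split at resolution 0.2, a choice made after the clusters were seen. The split gave the new clusters 31 and 32, of which cluster 32 is part of the macrophage-like class. Doublets were kept and no caller was run. A class needed 50 cells. Shares of cells were thinned to 2500 UMIs. Members at 10 CPM or more in any library or class (35 of 37) are named with values in all libraries, by role. The ratio step was run on simulated counts with 200 genes changed and recovered 100% of them in the comparison of B0 with A0. The simulated counts carried counting error alone, with no spread between cells or animals, so the run checks the computation and not the calls. The changed genes were drawn from the 6643 at 10 CPM or more in A0, and the cell mix was not varied. Members below that level in A0 are not covered by it. Promoters came from RefSeq (GRCm38.p6). Python 3.11.15, numpy 2.4.6, scipy 1.17.1, pandas 2.3.3 and matplotlib 3.10.9 were used.

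The members and the lists were chosen with earlier results of these data known. The alternatives were another pseudocount (10 or 0.1 CPM), no filter, cells at the common UMI limit, centring, a mean over cells, leaving out the 5% of cells with the most UMIs, other clusterings (resolution 0.5 and 2, 1000 variable genes) and no thinning. The share of all genes called was counted at the common UMI limit for all cells pooled, and not under the other alternatives.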

Additional observations from a re-analysis of the deposited data

How the results depend on the processing

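Each group was 1 library, so no replicate was left out and no test across animals was run. No paired analysis was possible because each group was 1 library. The depth limits of the libraries differ, and only 448 cells of B0 reach the lower limit that all 4 libraries meet. Above it, depth was not matched.

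With 10 CPM added in place of 1, the members called over all cells numbered 15 between B0 and A0, 15 between BA10 and B0, and 2 between BA10 and A0. Within SPCs, 4 were called between B0 and A0, 3 between BA10 and B0, and 1 between BA10 and A0. Within STs, 1 was called between BA10 and A0, and within Leydig-like cells 7 between BA10 and B0. The larger addition itself shrinks the ratios of genes at a few CPM. At the common UMI limit, 12 members were called for B0 over A0 and 5 for BA10 over B0, and within SPCs 8 for BA10 over B0. Centred on the median of all genes, 3 were called for BA10 over A0. Within SPCs, BA10 over A0 kept 1 member of 2 without the 5% of cells with the most UMIs, at resolution 2 and with 1000 variable genes, namely 1 in each, Bax being the one lost.

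At the common UMI limit the log2 ratio of Trp53 for BA10 over B0 turned to 0.035, and that of Pmaip1 within SPCs to -0.35 for B0 over A0 and 0.78 for BA10 over B0. No Pmaip1 UMI was left in the 57 B0 SPCs at that limit, so the turned signs of Pmaip1 show no direction. The cause was not tested for any of these ratios. The percent of Cyct was 85.2 in A0, 86.2 in A10 and 48.5 in B0 at that limit, and 82.7, 82.9, 6.29 and 73.9 in A0, A10, B0 and BA10 without the 5% of cells with the most UMIs. Without thinning, 8 members in A0 and 13 in BA10 had a UMI in at least 10% of cells.

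With 0.1 CPM added, without a filter, by a mean over cells and at resolution 0.5, the counts over both directions together that could be made stayed within 1.5 times. By direction, 8 members in place of 5 were higher in BA10 than in A0 without a filter, and 2 in place of 0 were lower in B0 than in A0 by a mean over cells, as they were without the 5% of cells with the most UMIs. At resolution 0.5 only 2 B0 classes had enough cells and neither was a germ class, so all 37 members were highest in a somatic class by construction, which says nothing about the 26. B0 SPCs were too few at resolution 0.5 (45 cells) and with 1000 variable genes (43), and B0 Leydig-like cells at the common limit (20), so those were not run, nor was the order of B0 classes at that limit.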
